A study of Homo sapiens with 8 samples.

Results

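Trimethylation of histone H3 at lysine 4 (H3K4me3) was mapped by ChIP-seq in U2OS, a line from a human osteosarcoma in which telomeres are kept up by recombination, with no telomerase. The regions described here were the marked regions that lay far from annotated genes. A region qualified when peaks of at least 4 of the 6 ChIP libraries overlapped it, after the 6 peak lists were merged on chromosomes 1 to 22, and when it lay more than 10 kb from the 5′ end of every GENCODE transcript. Of 30268 merged regions, 20321 were called in at least 4 libraries, and 3307 of these (16.3%) were distal. The other 17014 lay within 10 kb of a 5′ end and are called near regions. The libraries came from 3 wild-type (WT) clones and 3 knockout (KO) clones of ZBTB48, which has zinc fingers and is found at telomeric repeats and at promoters. Each library was a separate clone, and all clones, WT and KO alike, had received a 24 h treatment with interferon gamma (IFNγ) at 250 U/ml. No untreated library was among the samples. The 2 input libraries, labelled WT replicates 1 and 2, were not used here. The question was where the mark lies away from promoters in these cells and whether its width or strength there differed between WT and KO clones.

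H3K4me3 is deposited by the SET1 and MLL methyltransferase complexes and is recognised by the transcription factor TFIID, so that it is strongest around the start sites of active genes and at islands of CpG dinucleotides. Away from genes, active enhancers carry mainly monomethylation of the same lysine, and a trimethylated distal site can be an unannotated start site, a gene read by RNA polymerase III or an enhancer with unusually strong activity. In the IFNγ response, STAT and IRF proteins bind enhancers and promoters, and CIITA, a target of ZBTB48, switches on the MHC class II genes that present antigen to T cells.

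The mark at lineage genes was checked in each list. Of the osteoblast genes, RUNX2, COL1A1, SPARC and MSX2 carried a peak within 1 kb of their 5′ end in all 6 libraries, and COL1A2, ALPL and TWIST1 carried none in any. The blood genes PTPRC, CD79A, CD3E and SPI1 were marked in no library. Of the 5 epithelial genes, EPCAM and KRT8 were marked in 6 libraries and ESRP1 in 5, while CDH1 and KRT5 were marked in 0.

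Sequences of 150 bp from the middle of 5 distal regions, and 1 of 300 bp, show the kinds of sequence the set holds. They are given 5′ to 3′ on the plus strand of GRCh38. In the first 3, capitals mark the letters of a motif that the interferon or stress response uses (TGANTCA, bound by AP-1; a pair of GAAA words 2 bases apart, the ISRE core bound by IRF and STAT complexes; TTCNNNGAA, bound by STAT dimers) on either strand. In the last 3, capitals mark CpG dinucleotides.
Between HLA-DRB1 and HLA-DQA1, chr6:32610036-32610185: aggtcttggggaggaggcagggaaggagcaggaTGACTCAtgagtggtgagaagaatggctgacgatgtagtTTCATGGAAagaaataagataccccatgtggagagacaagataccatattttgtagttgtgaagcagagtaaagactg
Beside IRF1 and IL5, chr5:132526566-132526865: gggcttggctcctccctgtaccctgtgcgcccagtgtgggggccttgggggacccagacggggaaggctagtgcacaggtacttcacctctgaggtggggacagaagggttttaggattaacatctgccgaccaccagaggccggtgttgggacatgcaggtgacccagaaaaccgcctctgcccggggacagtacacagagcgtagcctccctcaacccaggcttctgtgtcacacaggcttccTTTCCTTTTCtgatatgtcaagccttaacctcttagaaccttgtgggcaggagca
Intron of EFCAB5, chr17:30104866-30105015: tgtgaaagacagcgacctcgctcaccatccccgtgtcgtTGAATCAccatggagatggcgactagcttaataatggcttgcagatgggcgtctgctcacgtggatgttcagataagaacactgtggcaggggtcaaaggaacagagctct
CpG-rich, chr2:69306450-69306599: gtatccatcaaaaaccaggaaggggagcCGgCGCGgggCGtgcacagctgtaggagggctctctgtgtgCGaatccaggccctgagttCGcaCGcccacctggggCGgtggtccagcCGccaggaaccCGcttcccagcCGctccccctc
CpG-rich, beside RPSAP52, chr12:65729115-65729264: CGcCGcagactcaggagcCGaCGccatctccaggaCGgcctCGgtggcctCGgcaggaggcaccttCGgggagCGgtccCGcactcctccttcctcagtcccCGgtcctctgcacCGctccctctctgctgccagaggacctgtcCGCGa
AT-rich, chr3:93470507-93470656: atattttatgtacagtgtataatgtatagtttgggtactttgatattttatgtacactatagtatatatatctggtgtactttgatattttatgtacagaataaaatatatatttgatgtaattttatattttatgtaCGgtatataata
The first 2 lie near genes of antigen presentation and of the IFNγ response, the third was among the highest-ranked regions with the AP-1 letters, and the last 3 were among the regions with the highest rank or with calls split by library, as described below.

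The lists themselves fell into a pair of kinds that crossed the genotypes, and this touches each comparison of width and enrichment below. The median fold enrichment over all autosomal peaks was 13.6 and 14.1 in WT1 and WT2 but 4.18 in WT3, and 4.31, 4.59 and 4.63 in KO1, KO2 and KO3. The median peak width was 2310 and 2365 bp in WT1 and WT2, 1483 bp in WT3, and 1385, 1375 and 1271 bp in the KO lists. WT3 therefore stood with the KO libraries on both measures. The only input libraries carry the same genotype and replicate labels as WT1 and WT2. Whether an input was given for each list is not stated, and the cause of the split was not tested. Peaks per list ranged from 21025 to 25545. The authors give a range of reads obtained per sample, but the lists carry no counts, so the usable reads behind each list are unknown.

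Calls at the distal regions were less uniform than calls near genes. All 6 libraries called 1985 of the distal regions (60.0%), 5 libraries called 657 and 4 called 665, whereas 15313 of the 17014 near regions were called in all 6. Since calls chose the regions, these numbers are a description. Just below the threshold, another 778 distal regions were called in 3 libraries, and 1155 and 2827 were called in 2 and in 1. Median region width was 809 bp at 3 calls, 937 bp at 4, 1061 bp at 5 and 1388 bp at 6. The median −log10 p within the list, written as a percentile with 100 as the strongest, was 11.9 at 3 calls, 14.5 at 4, 17.4 at 5 and 30.7 at 6. The regions just inside the threshold were thus narrower and weaker than those called everywhere, and close to those just outside it.

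The distance threshold also cut through a continuum. The regions just past it were 10.003 kb from a lncRNA on chromosome 9 (chr9:136132524-136134497), 10.005 kb from TTC39B in an intron of that gene (chr9:15295814-15297204), and 10.007 kb from a pseudogene on chromosome 6 (chr6:27791118-27794122). Just short of it lay regions at 10.000 kb in PDE1C, 9.999 kb in LGR6 and 9.981 kb beside COL16A1. The regions just past it were 1974, 1391 and 3005 bp wide, and those just short of it 949, 1860 and 1614 bp.

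The distal regions were narrow. Their median width after merging was 1218 bp (range 288 to 9930 bp), against 3035 bp for the near regions. Widths above 2 kb were found at 512 distal regions (15.5%) and at 74.1% of the near regions, and widths above 5 kb at 25 distal regions. At the 1985 distal regions called everywhere, the median length covered by peaks was 1072, 1193 and 1097 bp in WT1, WT2 and WT3, and 1100, 840 and 762 bp in KO1, KO2 and KO3. At the 15313 near regions called everywhere, it was 2969, 2958 and 1825 bp in the WT libraries and 1792, 1615 and 1520 bp in the KO libraries. Distal peaks were shorter in each of the 6 libraries. The spread over all 6 lists was smaller at the distal regions, but this held among the WT lists only. The SD was 63.9 bp at distal and 657 bp at near regions among the WT lists, and 177 and 138 bp among the KO lists. The difference, distal minus near, averaged −1103 ± 567 bp (SD, n = 6). Its p was 0.031 by a two-sided exact sign-flip permutation over libraries, which is the smallest p that 6 libraries allow, and 0.109 after Benjamini-Hochberg adjustment over the 7 tests made.

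Distal peaks also ranked low for significance in their lists. At the 1985 distal regions called everywhere, the median percentile of −log10 p was 29.6, 31.1 and 35.7 in the WT libraries and 40.3, 27.4 and 28.2 in the KO libraries. Near regions called everywhere sat at 64.3, 64.8 and 67.0 in WT and at 69.3, 62.8 and 63.3 in KO. The difference of −33.2 ± 2.58 percentile points (SD, n = 6) was seen in 6 of 6 libraries, with an exact permutation p of 0.031 and an adjusted p of 0.109. Between 193 and 507 of the distal regions fell in the lowest 10% of a list, and between 10 and 23 in the highest 10%.

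Fold enrichment, again over the distal and near regions called in all 6 libraries, gave a different picture that followed the kind of list. In WT1 and WT2 the median fold enrichment was 5.70 and 6.19 at the distal regions and 18.6 and 19.8 at the near regions. In WT3 and KO1 the order was turned, with 5.03 and 5.37 at the distal regions and 4.42 and 4.63 at the near regions. KO2 and KO3 gave 4.79 and 4.62 at the distal regions, just under the 4.92 and 5.05 of the near regions. As percentiles within each list, the distal regions stood above the near regions in WT3 and KO1 and below them in the other 4 libraries. The mean difference was −7.37 ± 23.2 percentile points (exact permutation p = 0.469, adjusted p = 0.656). It was −3.32 without WT1, −2.83 without WT2, and −12.7 without WT3 or without KO1. Fold enrichment at the distal regions thus lay between 4.62 and 6.19 in all 6 libraries, while at the near regions it differed between the kinds of list.

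**Figure D1:**
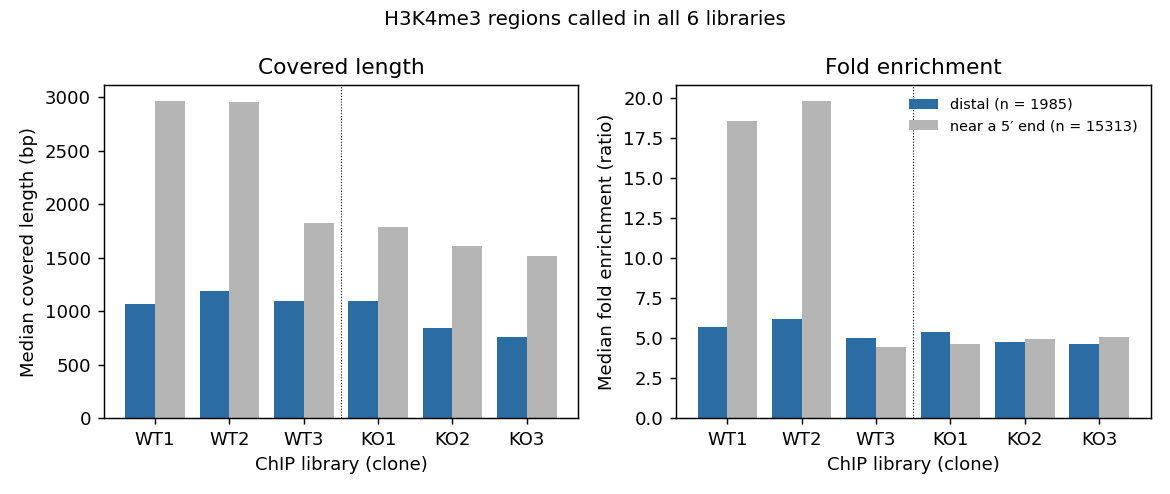
Median covered length in bp (left) and median fold enrichment as a ratio (right) in each of the 6 libraries, for the 1985 distal regions (blue) and the 15313 near regions (grey) called in all 6. The distal bars stay between 762 and 1193 bp and between 4.62 and 6.19, while the near bars are tallest in WT1 and WT2; the dotted line divides WT from KO.

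WT and KO clones did not separate in how much of the mark lay far from genes. Peaks more than 10 kb from any 5′ end made up 17.7%, 18.5% and 20.8% of the peaks in WT1, WT2 and WT3, and 22.7%, 16.6% and 16.7% in KO1, KO2 and KO3. KO1 was above and KO2 and KO3 were below the WT range. The means were 19.0 ± 1.60% in WT and 18.7 ± 3.50% in KO (SD, n = 3 each; two-sided exact permutation p = 0.9, adjusted p = 1; 0.1 is the smallest p that 3 against 3 allows). The sign of this difference turned when WT3, KO2 or KO3 was left out, and it ranged from −0.699 to 2.35 percentage points.

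Covered length and the rank of −log10 p were compared at the regions called in all 6 libraries. At the distal ones, covered length was 1121 ± 63.9 bp in WT and 901 ± 177 bp in KO. The difference of 220 bp was not past the test (exact permutation p = 0.3, adjusted p = 0.525). KO1, at 1100 bp, lay within the WT range, and KO2 and KO3 lay below it. Divided by the length at near regions of the same list, distal length was 0.361, 0.403 and 0.601 in WT and 0.614, 0.520 and 0.501 in KO. The mean ratio, WT minus KO, was −0.0899, with overlapping groups (exact permutation p = 0.3, adjusted p = 0.525). With WT3 alone against the 3 KO libraries the sign turned, to a ratio 0.0560 higher in WT3. The rank of −log10 p averaged 32.2 ± 3.18 in WT and 31.98 ± 7.26 in KO (exact permutation p = 1, adjusted p = 1), and the sign of that difference also turned without WT3, KO2 or KO3, over a range of −2.10 to 4.36.

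Covered length in each WT library exceeded that in each KO library at 553 of the 3307 distal regions (16.7%), where the share over all 20321 regions was 40.0%. The reverse, longer in each KO library, held at 44 distal regions (1.33%) beside 0.512% over all regions. These counts changed with single libraries. Fewer libraries leave fewer comparisons to satisfy, and each count with 1 library left out (577 to 1441) was above 553. The share over all regions was not computed for those counts. Without WT3 972 regions were longer in each WT library, without KO1 1441 were, and WT3 alone exceeded each KO library at 1359 (41.1%, beside 49.1% over all regions) and fell below each at 291 (8.80%, beside 5.14%). The 553 regions longer in WT were 1569 bp wide at the median and 33.1% of them were CpG-rich, against 1102 bp and 6.82% among the 44 longer in KO. Over all distal regions the values were 1218 bp and 18.7%. Both sets were chosen by covered length, so the difference in width follows in part from the choice. A wide region also offers more windows that can be CpG-rich.

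Calls split by genotype were also split by library. In the WT clones 2989, 3005 and 3098 of the distal regions were called, and in the KO clones 3245, 2868 and 2650. KO1 missed only 62 of the regions and KO3 missed 657, a wider gap than that between any WT libraries. Calls in 3 WT and 1 KO library were seen at 227 regions (6.86%, beside 2.39% over all regions), and in 205 of these the KO library was KO1. Calls in 3 KO and 1 WT library were seen at 117 (3.54%, beside 1.44%). The rule of 4 calls keeps out any region called in all libraries of 1 genotype and in none of the other, so such regions cannot appear here.

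The highest-ranked region of the first kind lay 28.9 kb from RPSAP52, a transcribed pseudogene beside HMGA2 on chromosome 12 (chr12:65728282-65730097, intergenic). Peaks covered 1788, 1648 and 1375 bp of it in WT1, WT2 and WT3 and 1296 bp in KO1, and no peak was called in KO2 or KO3. Its fold enrichment was 16.6, 21.5, 6.4 and 6.2 in the libraries that called it. Its middle is the CpG-rich chromosome 12 sequence printed above, and no 31-base word of its middle 300 bp recurred in the genome. The next in rank, chr8:109754508-109756186, was intergenic with unique sequence in its middle, and covered length was 1532, 1679 and 1384 bp in WT and 1394 bp in KO1. The other two of the 4 highest-ranked lay on chromosomes 16 and 3 (chr16:86666757-86669232 in an exon of a lncRNA, and chr3:75611846-75612320). All 4 were called in KO1 and missed in KO2 and KO3. Of the 31-base words in the middle 300 bp of these other two, 81.5% and 56.3% recurred elsewhere in the genome.

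The 4 highest-ranked regions called in 3 KO and 1 WT library were called in WT3 and missed in WT1 and WT2. At chr3:93470350-93470813, 373 kb from the nearest 5′ end, peaks covered 457 bp in WT3 and 453, 461 and 463 bp in KO1, KO2 and KO3, with a fold enrichment of 17.7, 20.5, 19.9 and 23.7. These were higher than the median of any list. The region holds 22.8% G and C, and its AT-rich repeating letters are those printed above. At chr16:46390428-46391189 covered length was 755 bp in WT3 and 748, 704 and 706 bp in the KO libraries, and at chr5:49601480-49602757 it was 798 bp and 808, 1272 and 901 bp. The last, chr20:31067388-31069186, had 1009 bp in WT3 and 877, 1535 and 1169 bp in the KO libraries. Of the 31-base words in the middle 300 bp, 80.7%, 51.9% and 40.4% recurred elsewhere in the genome at the chromosome 16, 5 and 20 regions. At the chromosome 3 region the share was 0.741%. The middles of the chromosome 16, 5 and 20 regions are made largely of the short word aatgg and close variants. The chromosome 3 region stood at percentile 80.6 of −log10 p in WT3, 95.8 in KO1 and 100 in KO2 and KO3. Whether the peaks at these regions reflect the mark or repeated sequence was not tested. Over all 117 regions called in 3 KO and 1 WT library, the WT library was WT3 in 69, WT1 in 35 and WT2 in 13.

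The distal regions differed from the near regions in base composition. Median G and C content was 47.1% against 52.7%. A window of 500 bp with at least 55% G and C and a CpG ratio of at least 0.65 (observed over expected, called CpG-rich here) was found in 618 distal regions (18.7%) and in 76.6% of the near regions. Since near regions are wider and offer more windows, the middle 500 bp was examined as well, and it was CpG-rich in 11.6% of the distal and 43.3% of the near regions.

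Among the distal regions, the CpG-rich ones were wider, stronger and more evenly called. Their median width was 1660 bp against 1144 bp for the other 2689, and 87.1% of them were called in all 6 libraries against 53.8% of the others. A wide region offers more windows, so the difference in width is in part built into the class. By the middle 500 bp alone, 16.9% of the distal regions called in all 6 libraries were CpG-rich, against 3.78% of those called in 4 or 5. In KO3, the library with the fewest calls, 96.4% of the CpG-rich and 76.4% of the other distal regions were called. In KO1, with the most calls, the shares were 99.4% and 97.8%. The gap between KO1 and KO3 was therefore wider among the regions that were not CpG-rich. No test was made, because all regions of a library share its depth and its peak calling.

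The AP-1 letters TGANTCA stood in the middle 300 bp of 463 distal regions (14.0%) and 6.40% of the near regions, against 7.64% of all 20321. The ISRE core stood in 9.40% of the distal and 3.98% of the near regions (4.87% of all), and TTCNNNGAA in 8.41% and 6.74% (7.01% of all). The telomeric unit TTAGGG, which ZBTB48 binds in tandem arrays, stood in 8.16% of the distal and 9.57% of the near regions (9.34% of all). 2 units in tandem were in 0 distal and 3 near regions. Both strands were searched, the first 3 motifs are rich in A and T and the distal regions were lower in G and C. Distal regions with TGANTCA were CpG-rich in 7.13% of cases and those without it in 20.6%. They were called in all 6 libraries in 53.6% of cases, close to the 53.8% of all regions that were not CpG-rich, and KO3 called 74.5% of them.

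Distal regions outside chromosome 8 with TGANTCA, unique sequence in the middle 300 bp and no CpG-rich window were ranked, a choice made after their values were seen. The 4 strongest included chr15:77541717-77544113 on chromosome 15 and the intronic region of EFCAB5 printed above (chr17:30104447-30105435). At the first, covered length was 2244, 2296 and 1335 bp in WT and 1397, 1256 and 927 bp in KO. At the second it was 815, 818 and 802 bp in WT and 879, 633 and 596 bp in KO, and its fold enrichment of 6.9 to 8.0 was nearly level over the 6 libraries. WT1 and WT2 stood out at the wide first region and not at the narrow second one. The other 2, chr7:2862467-2865387 and chr18:11946190-11948598, were 2921 and 2409 bp wide, with the longest cover in WT1 and WT2.

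**Figure D2:**
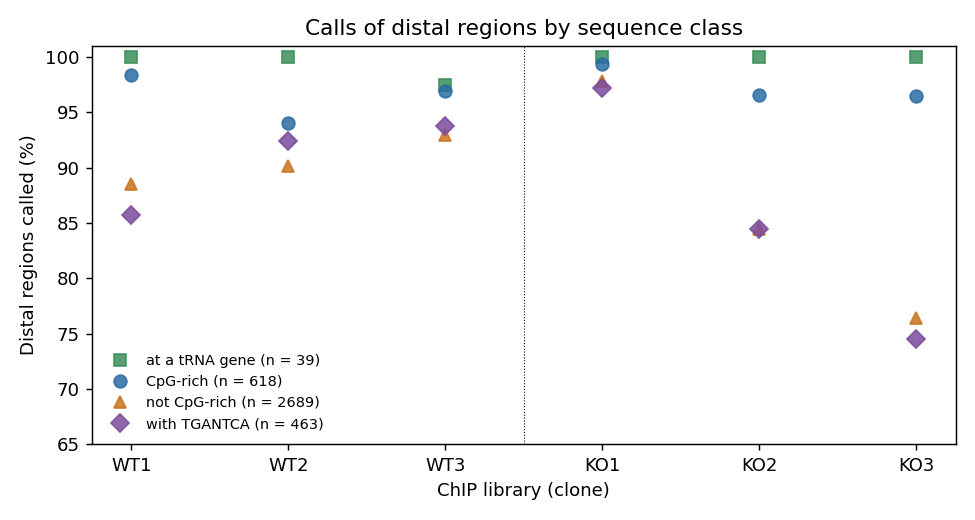
Percent of distal regions called in each of the 6 libraries, by sequence class: at a tRNA gene (39), CpG-rich (618), not CpG-rich (2689) and with TGANTCA (463, a class that overlaps the others). The vertical axis starts at 65%. CpG-rich regions and regions at tRNA genes stay above 94% in each library, while the regions that are not CpG-rich fall to 76.4% in KO3.

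A group of the distal regions lay at transfer RNA genes. These genes are absent from the GENCODE annotation used to measure distance and were taken from RefSeq (GRCh38.p14) after clusters on chromosome 6 had been seen. tRNA genes are read by RNA polymerase III from boxes inside the gene, and active ones carry H3K4me3 on the flanking nucleosomes. Of 439 autosomal tRNA genes, 264 (60.1%) had an H3K4me3 region called in at least 4 libraries within 500 bp, and 49 of these were at 39 distal regions. Of those 39, 38 were called in all 6 libraries. The exception, at TRR-CCG1-1, covered 1649 and 1593 bp in WT1 and WT2, 0 bp in WT3 and 971, 549 and 514 bp in the KO libraries. The tRNA regions had a median width of 2654 bp, more than the 1202 bp of the 3134 distal regions with no RefSeq start site or tRNA gene nearby.

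At the tRNA regions called everywhere the median covered length was 2522, 2628 and 1714 bp in WT and 1653, 1623 and 1627 bp in KO, so that WT3 was close to the KO libraries, as at near regions. The region at TRP-AGG2-4 and TRP-TGG2-1 (chr11:76233346-76237505), which decode proline, was covered over 3497, 4160 and 3024 bp in WT and 2532, 2691 and 2321 bp in KO. It was the highest-ranked of the 39. At TRI-TAT2-1 on chromosome 2 (chr2:42808892-42812409) covered length was 3351, 3455 and 2643 bp in WT and 2576, 2415 and 2191 bp in KO. At both, each WT library exceeded each KO library, which was so at 16 of the 39 (41.0%), near the 40.0% of all regions. The tRNA genes of 3 such regions are shown on the plus strand, with the letters GTTCNANNC (or their reverse complement) of the internal B box in capitals.
TRI-TAT2-1, chr2:42810536-42810628: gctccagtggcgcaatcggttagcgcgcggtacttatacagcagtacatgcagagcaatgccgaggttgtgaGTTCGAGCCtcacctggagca
TRT-CGT5-1, chr6:27618356-27618429: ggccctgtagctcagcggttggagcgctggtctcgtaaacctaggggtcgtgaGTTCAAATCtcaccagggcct
TRQ-CTG6-1, chr6:27791356-27791427: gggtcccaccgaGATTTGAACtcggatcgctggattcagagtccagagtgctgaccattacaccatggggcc
These letters were found in 48 of the 49 tRNA genes at distal regions and in 390 of all 439. In the middle 300 bp they stood in 33.3% of the tRNA regions, 9.53% of all distal and 8.17% of the near regions. TRQ-CTG6-1 is the gene inside the chromosome 6 region that lay 10.007 kb from the nearest GENCODE 5′ end, with 3005, 2801 and 2164 bp covered in WT and 2096, 2032 and 2040 bp in KO.

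Chromosome 6 held 24 of the 39 tRNA regions (61.5%). Between 26 and 29 Mb of this chromosome, where the largest tRNA gene cluster of the genome lies beside histone genes, 23 of the 25 distal regions were at a tRNA gene. The cluster of 9 distal regions at chr6:28742498-28826161 had 8 at tRNA genes, that of 5 regions at chr6:27494794-27618986 had 4, and that of 4 at chr6:27228422-27298861 had all 4. The label of being far from annotated genes therefore does not hold for these regions. A further 134 distal regions (4.05%) lay within 1 kb of a RefSeq 5′ end that GENCODE lacks at that place. Counting 2 regions at tRNA genes there were 136 (4.11%), mostly at the 5′ end of a lncRNA (120 of 136). Of the near regions, 63.4% lay within 1 kb of a RefSeq 5′ end, whether or not GENCODE has it too. The remaining 3134 of 3307 distal regions (94.8%) were at neither a tRNA gene nor a RefSeq 5′ end.

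Other clusters were few. With a distance of 50 kb, 330 clusters of at least 2 regions held 735 distal regions, and 77.8% of the distal regions stood alone. The largest held 12 regions over 114 kb of chromosome 12 (chr12:34288718-34402916), between 845 and 9930 bp wide, of which 4 were CpG-rich and 6 were called in all libraries. The third in size held 6 regions between CUX1, a homeobox transcription factor, and MYL10, a myosin light chain (chr7:101687866-101755310), and 5 of them were called in all 6 libraries. The 4 regions within EGFR, the epidermal growth factor receptor (chr7:55065190-55133855), included 2 called in all 6.

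Most distal regions, 1869 of 3307 (56.5%), were intergenic. Introns of protein-coding genes held 904 and exons of such genes 147, while introns and exons of other genes held 342 and 45. The nearest 5′ end was that of a protein-coding gene at 1248 regions, of a lncRNA at 1093 and of a processed pseudogene at 539. Median distance was 24897 bp. Regions 10 to 20 kb away numbered 1271, those 20 to 50 kb away 1306, those 50 to 100 kb away 471 and those 100 to 200 kb away 210, while 43 lay 200 to 500 kb away and 6 beyond 500 kb. Intergenic regions were called in all 6 libraries in 64.5% of cases and regions in introns of protein-coding genes in 52.0%.

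Most distal regions within protein-coding genes had a host gene that was marked at a promoter of its own. Of these 1051 regions, 847 (80.6%) had a host gene marked at a 5′ end in all 6 libraries, and 144 had a host with no marked 5′ end in any library. Counted over genes, 68.9% of all 19111 autosomal protein-coding genes were marked in all 6. The shares are not counted alike. A host with several regions counts once for each region, and a gene counts as marked if any of its annotated 5′ ends is. The share over host genes was not computed. The 852 host genes included 181 with at least 2 regions. PTPRN2, a phosphatase-like protein of secretory granules, held 7 regions and no marked 5′ end. DLGAP2, a postsynaptic scaffold gene, held 6 and was marked in 5 libraries. MAML3, a Notch coactivator, and PDE4D, a cAMP phosphodiesterase, held 5 each and were marked in 6 libraries. EGFR held 4 and was marked in 6, whereas CUBN, the cobalamin receptor of the gut and kidney, held 4 and was marked in 0. These genes are long, from 193 kb for EGFR to 1553 kb for PDE4D, and were picked out by their number of regions.

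**Figure D3:**
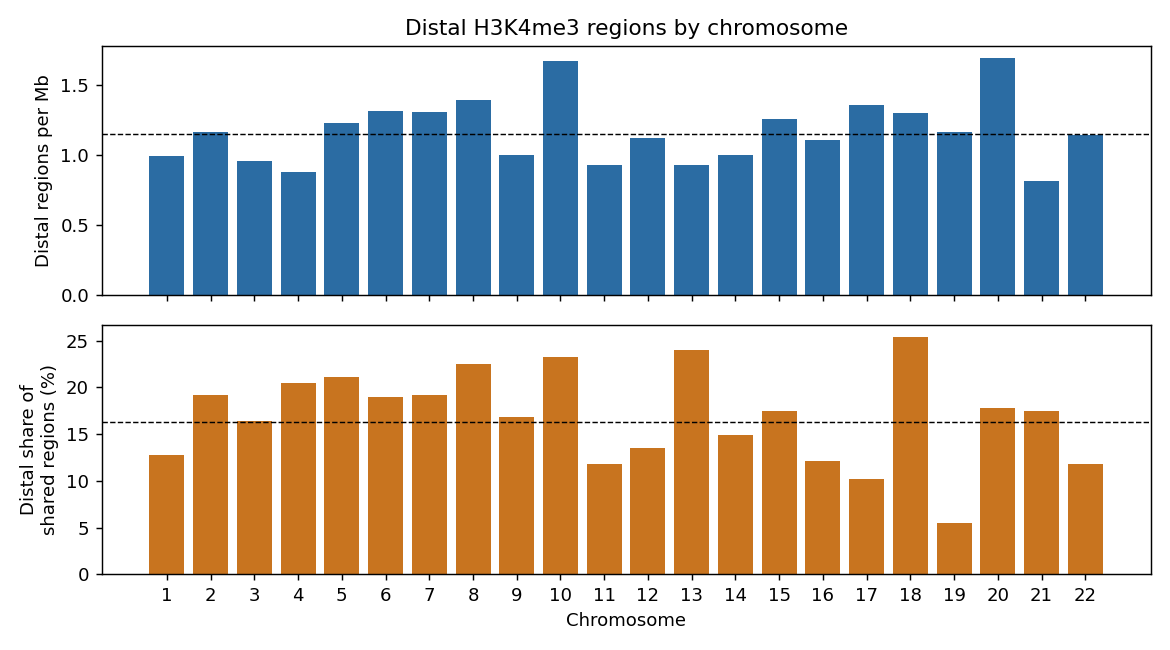
Distal regions per Mb (top) and distal regions as a percent of all regions called in at least 4 libraries (bottom) for chromosomes 1 to 22. Dashed lines show the values over the 22 chromosomes together, 1.15 per Mb and 16.3%. Chromosomes 20 and 10 have the highest density and chromosome 21 the lowest, and the distal share is lowest on chromosome 19.

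The distal regions were spread over all 22 autosomes more evenly than the near regions. Density was 1.15 per Mb overall and ran from 0.814 on chromosome 21 and 0.878 on chromosome 4 to 1.67 on chromosome 10 and 1.69 on chromosome 20. Near regions ran from 2.93 per Mb on chromosome 13 to 20.0 on chromosome 19. The distal share was thus 5.48% on chromosome 19, which is dense in genes, and 25.4% on chromosome 18, which is sparse in them. On chromosome 10, 194, 195 and 212 of the 223 regions were called in the WT libraries and 211, 196 and 174 in the KO libraries. On chromosome 20, 92, 95 and 106 of the 109 were called in WT and 109, 100 and 92 in KO. KO1 called the most regions on chromosome 20 and KO3 shared the lowest count with WT1, as in the whole set KO1 had the most.

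The regions with the highest rank were CpG-rich, and several lay beside centromeres. Ordered by their lowest percentile of −log10 p over the libraries, the first was chr2:91441860-91443233 (a lowest percentile of 98.9), at a RefSeq gene model without a GENCODE counterpart. Its covered length was 1300, 1374 and 937 bp in WT and 941, 905 and 930 bp in KO, with a fold enrichment of 33.4, 28.8 and 9.0 in WT and 9.2, 9.4 and 9.6 in KO. The next were chr2:94272622-94273921, chr2:91476983-91479662, chr2:69304976-69308073, chr7:62379193-62380843 and chr1:227541368-227543179, with lowest percentiles of 97.8, 96.8, 88.7, 86.1 and 86.0. The 6 regions were CpG-rich without exception. The chromosome 2 region at 69.3 Mb, whose middle is printed above, had unique sequence in its middle 300 bp. Its covered length was 2287, 3098 and 1587 bp in WT and 1600, 1363 and 1325 bp in KO. At each of the 6, WT1 and WT2 were above the other 4 libraries, and WT3 lay within or near the KO range.

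The widest region, chr12:34342165-34352094, extended over 9930 bp beside the centromere of chromosome 12. It was covered over 9361 and 9553 bp in WT1 and WT2, 4129 bp in WT3, and 4149, 3767 and 3824 bp in the KO libraries. The region in an intron of PTPRN2 (chr7:157683126-157692074) was covered over 6522, 8949 and 3661 bp in WT and 3448, 3086 and 3038 bp in KO. An AT-rich region of chromosome 18 (chr18:29155306-29164337) had 9032 and 8211 bp in WT1 and WT2, 552 bp in WT3 and 897, 3490 and 2755 bp in KO. In all 3 the length was far greater in WT1 and WT2 than in the other 4 libraries. These regions were picked by merged width, which the longest peaks set, and WT1 and WT2 had the widest peaks. The pattern therefore follows in part from the choice. The regions farthest from a 5′ end were chr1:125118142-125119614 and chr1:125085449-125087952, 3538 and 3505 kb away, and chr7:60955311-60956944 and chr7:60991540-60992717, 1319 and 1283 kb away. All 4 were called in 6 libraries and were CpG-rich, and at the first covered length was 1415, 1464 and 1313 bp in WT and 1312, 1237 and 1219 bp in KO.

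Repeated sequence was more frequent at the distal regions. At least 50% of the 31-base words of the middle 300 bp recurred in the genome at 467 of them (14.1%) and at 5.25% of the near regions. Reads with several alignments had been removed by the authors. The repeated distal regions were called in all 6 libraries in 64.03% of cases and the others in 59.4%, and their median widths were 1234 and 1212 bp.

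At the MHC class II genes, the distal regions held the mark in every WT and KO library while several promoters did not. Of 15 genes in the list, 9 had a distal region within 100 kb (60.0%, against 20.4% of all autosomal protein-coding genes), but they shared 4 regions because the genes lie together. The 4 regions were called in all 6 libraries, and no other distal region, at any number of calls, lay within 100 kb of the list. In the same lists a peak lay within 1 kb of the 5′ end of CIITA, HLA-DRB1, HLA-DMA and HLA-DOA in 3 WT and 0 KO libraries, of HLA-DRA and CD74 in 3 WT and 1 KO, and of HLA-DQA1 and HLA-DOB in 2 WT and 0 KO. HLA-DQB1 and HLA-DPB1 were marked in 3 WT and 2 KO, HLA-DMB in 3 and 3, and HLA-DPA1 in 1 and 0. No library marked HLA-DQA2, HLA-DQB2 or HLA-DRB5.

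The strongest of the 4 lay in an exon of the pseudogene HLA-DRB9, 19.0 kb from HLA-DRA, which encodes the alpha chain of HLA-DR (chr6:32458903-32460933). It was covered over 1933, 2031 and 1230 bp in WT and 1281, 1247 and 1164 bp in KO. Its fold enrichment was 19.4, 19.3 and 6.6 in WT and 6.1, 6.4 and 6.8 in KO, and WT3 again lay within the KO range on covered length. The means of 1731 ± 437 bp and 1231 ± 60.2 bp overlapped (exact permutation p = 0.3, adjusted p = 0.6 over the 12 regions near a gene of the lists). Between HLA-DRB1 and HLA-DQA1, the region whose AP-1 and TTCNNNGAA letters are printed above (chr6:32609693-32610529) was covered over 765, 672 and 509 bp in WT and 714, 584 and 352 bp in KO. It was 17.7 kb from HLA-DQA1, 19.8 kb from HLA-DRB1 and intergenic, and its means were 649 ± 130 bp and 550 ± 183 bp (exact permutation p = 0.6, adjusted p = 0.8). The region beside HLA-DOB (chr6:32796670-32797913), which is also within 100 kb of TAP1, TAP2, PSMB8 and PSMB9 of the peptide-loading pathway, was covered over 1028, 1150 and 1130 bp in WT and 1060, 909 and 1077 bp in KO. The groups overlapped, at 1103 ± 65.4 bp and 1015 ± 92.5 bp (exact permutation p = 0.3, adjusted p = 0.6). The region near CD74, the invariant chain (chr5:150472494-150474632), varied within each genotype, from 440 to 1961 bp in WT and from 327 to 1950 bp in KO. In it 89.3% of the 31-base words recurred in the genome.

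**Figure D4:**
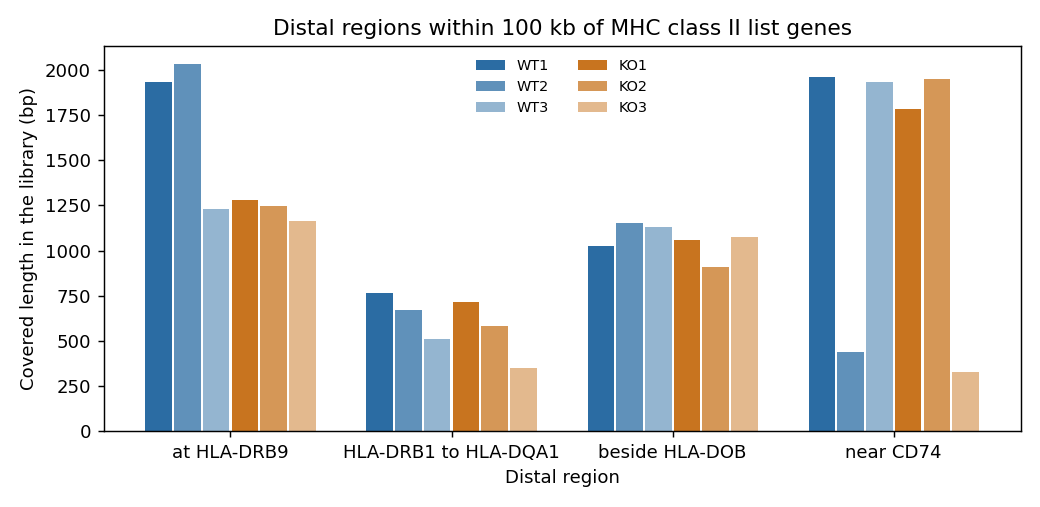
Length in bp covered by peaks in each library (WT blue, KO orange, shade by replicate) at the 4 distal regions within 100 kb of an MHC class II list gene. Each of the 4 regions has a peak in all 6 libraries. At HLA-DRB9 the bars of WT1 and WT2 stand at 1933 and 2031 bp, above the other 4 libraries.

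Among 40 genes of the IFNγ response, 10 (25.0%) had a distal region within 100 kb, near the 20.4% of all protein-coding genes. They shared 7 distal regions, and another 6 regions in reach were called in 1 to 3 libraries. The 13 regions were called 6, 7 and 10 times in WT1, WT2 and WT3 and 11, 7 and 6 times in KO1, KO2 and KO3. The region 17.4 kb from IRF1, a transcription factor induced early by IFNγ, carried the ISRE core as printed above (chr5:132526166-132527265). It was covered over 487, 633 and 709 bp in WT and 1100, 457 and 507 bp in KO, with KO1 highest and the rest overlapping. The region 19.5 kb from IFNGR2, a chain of the IFNγ receptor (chr21:33382940-33383921), had peaks in WT2, WT3, KO1 and KO2 only, and that 71.2 kb from SOCS1, a feedback inhibitor of STAT signalling (chr16:11327357-11329405), lacked a peak in WT2 only. The promoters of all 3 genes were marked in 6 libraries.

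Of the 5 genes in the ZBTB48-target list, VWA5A had 2 distal regions within 100 kb and CIITA, MTFP1, PXMP2 and SNX15 had none. At chr11:124069199-124070451, 45.0 kb away, covered length was 1051, 1253 and 816 bp in WT and 987, 887 and 688 bp in KO. At chr11:124075109-124077126, 38.3 kb away, it was 2018, 1498 and 983 bp in WT and 1254, 1129 and 872 bp in KO. The genotypes overlapped at both (exact permutation p = 0.4 and 0.3, adjusted p = 0.686 and 0.6 over the 12 regions), and none of the 12 regions passed the test.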

How the data were processed

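Broad peaks were called per library by the authors, who used Trimmomatic for trimming and Bowtie2 2.3.5.1 for alignment to GRCh38, removed unmapped, multimapping and duplicate reads, and ran MACS2 2.1.1.2 in paired-end mode. Whether an input was given for each list is not stated in the sources used here. Each deposited list gives a score (not used here), a fold enrichment ratio, a −log10 p and a −log10 q, averaged over a broad peak by the authors. Ratios and −log10 values were ranked within a list only. The lists carry no counts, so the usable reads behind each list are unknown and no interval from counting was computed. A missing peak is weaker than absence of the mark. No lists shared more than 2 identical peaks.

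Touching peaks of the 6 lists were merged on chromosomes 1 to 22, a call needed an overlap of 1 bp, and distance was measured to the 5′ end of every transcript of GENCODE release 44. Covered length is the number of bp under a library's peaks within a region. Genotypes were compared by exact permutation of the 20 assignments and distal with near regions by the 64 sign flips of 6 libraries, with Benjamini-Hochberg adjustment over 7 tests. Samples were grouped by their labels, and replicates are clones. The regions, gene lists and tests were chosen with earlier results of these data known. Named regions were the 6 of highest rank (by the lowest percentile of −log10 p), the 6 widest, the 4 farthest from a 5′ end, up to 4 called in 3 libraries of 1 genotype and 1 of the other, the 3 on each side of 10 kb, and those within 100 kb of a list gene. The sets by sequence class, tRNA gene, host gene and cluster were added after values were seen. Sequence came from GRCh38 and tRNA genes and RefSeq 5′ ends from RefSeq (GRCh38.p14). Some genes of the marker lists are not reported here. The merging and the counts were tested on simulated lists. Python 3.11.15, pandas 2.3.3, numpy 2.4.6, pysam 0.24.0, numba 0.67.0 and matplotlib 3.10.9 were used.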

Additional observations from a re-analysis of the deposited data

How the results depend on the processing

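The distal regions were shorter and lower in −log10 p than the near regions under each alternative tried. Those alternatives were a −log10 q of at least 3, a fold enrichment of at least 4, equal numbers of peaks per list, at least 50% coverage, merging within 1000 bp, distances of 5 or 20 kb, protein-coding 5′ ends only, chromosome X, no repeated sequence, and each library left out. Calls in at least 3 or in all 6 libraries could not change these differences, which were taken over regions called in all 6. The difference in the percentile of fold enrichment, −7.37 points, was −1.03 with a −log10 q of at least 3, −1.41 with a fold enrichment of at least 4, −3.77 with equal numbers of peaks and −0.269 with at least 50% coverage, and −12.7 to −2.83 with 1 library left out. None of the 7 tests passed an adjusted 0.05 under any of them, and the lowest adjusted p was 0.109. None of the 7 could have passed. The smallest possible p is 0.1 for WT against KO and 0.031 for distal against near. Even if every test reached its smallest p, adjustment over 7 tests would leave each above 0.05. The number of distal regions was 1627 with a fold enrichment of at least 4, 1985 with calls in all 6 libraries, 2036 beyond 20 kb and 5874 with protein-coding 5′ ends only. Regions longer in each WT library numbered 341 beyond 20 kb, 1155 with protein-coding 5′ ends only and 1359 for WT3 against the KO libraries. Leaving out 1 library, which leaves fewer comparisons to satisfy, gave 577 to 1441 such regions and 2693 to 3060 distal regions in all.

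Some differences between genotypes changed sign, and none of these was past a test. With a fold enrichment of at least 4, WT minus KO was −0.703 percentage points for the distal share and −0.657 for the rank of −log10 p, and without repeated sequence the latter was −0.0177. WT3 against the KO libraries turned the width ratio to 0.0560; this comparison and that without repeated sequence were chosen after seeing the data. Leaving out 1 library gave −0.699 to 2.35 for the distal share, −2.10 to 4.36 for the rank, 139 to 320 bp for covered length and −0.163 to −0.0422 for the width ratio. The same replicate numbers did not pair the clones: deviations of covered length at the same number correlated at −0.294, 0.110 and −0.176. With the replicate number as a block, the differences were the same by construction, at 0.334 percentage points, 220 bp, −0.0899 and 0.182, with exact permutation p of 1, 0.5, 0.5 and 1. The cause of these changes was not tested. The lists carry no counts of usable reads, so a missed call at a narrow distal region cannot be told apart from one that too few reads could show.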
